A study of Danio rerio with 12 samples.

Results

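The 83 genes described here had less RNA in ddx3xb mutant zebrafish embryos than in control embryos at 2, 4 and 6 hours post fertilization (hpf). A gene was taken when its log2(RPKM + 1) was lower in mutants by at least 1 at each of the 3 times, with ddx3xb itself left out. RPKM is the number of reads per kilobase of gene scaled to the depth of the library. The 83 genes came from 33737 in the deposited tables. Only a gene with a control RPKM of at least 1 at every time could pass, and 10187 genes other than ddx3xb met that condition, so that 0.815% of them passed. The same values chose the genes and describe them, so the differences below are given without a test.

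Polyadenylated RNA of whole embryos was sequenced from 2 samples in each of 6 groups. The mutant groups, labelled ddx3xb-/-, were collected at 2, 4 and 6 hpf, and the control groups, labelled ddx3xb+/+ and wild type, at the same times. The labels do not say what the mutation is, whether the parents were themselves ddx3xb-/-, how many embryos made up a sample, or the strain. An effect of the mutation and a difference in background between the mutant and control lines therefore cannot be told apart. Each group has 1 deposited RPKM value per gene, so no group value has an error.

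DDX3X is a DEAD-box RNA helicase that unwinds messenger RNA and is known for its part in the start of translation. A zebrafish embryo lives at first on RNA that the mother laid down in the egg, then switches on its own genome and clears much of the maternal supply before and during gastrulation. A poly(A) library cannot tell the amount of an RNA from the length of its poly(A) tail. In whole embryos, fewer cells holding an RNA and less of it per cell cannot be told apart either.

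The targeted gene itself had RPKM values of 0.697, 18.8 and 48.8 at 2, 4 and 6 hpf in mutants, against 325, 318 and 194 in controls. Its mutant level thus came to 0.215%, 5.93% and 25.2% of the control level. The paralog ddx3xa had 97.4, 108 and 118 RPKM in mutants, against 107, 117 and 32.1 in controls, with differences of -0.14, -0.11 and 1.84. Whether ddx3xa and ddx3xb share reads was not tested. The depths recovered for the 12 libraries, as described further on, lay between 37.8 and 73.0 M reads on the scale assumed there.

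Across the 83 genes the median log2 difference was -1.75 at 2 hpf, -1.71 at 4 hpf and -1.53 at 6 hpf. The median over the 10187 genes that could pass was 0.00, 0.04 and 0.22 at those times. As a share of the control RPKM, the median gene stood at 9.01% at 2 hpf, 12.5% at 4 hpf and 22.2% at 6 hpf in mutants. The quartiles were 2.04% and 24.3% at 2 hpf, 7.01% and 25.1% at 4 hpf, and 12.6% and 33.6% at 6 hpf. The highest share of any of the genes was 46.4%, 47.8% and 49.7%, which the rule sets. The difference was largest at 2 hpf for 40 genes, at 4 hpf for 24 and at 6 hpf for 19. A log2 difference of at least 2 below control was reached by 32 genes at 2 hpf, 27 at 4 hpf and 20 at 6 hpf, and by 12 genes at all 3 times.

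The 3 differences of a gene fell within 0.5 log2 of each other for 31 genes and within 1 log2 for 61, and their median range was 0.62. The rule holds all 3 at -1 or below, and a low control level leaves little room beneath that. Closeness on this scale is therefore partly set in advance and does not mean a steady ratio. ENSDARG00000071511, for example, differed by -1.26, -1.17 and -1.06 but stood at 0.27%, 9.61% and 25.7% of control. The widest range was 3.05 log2, for si:ch1073-190k2.1, a gene known by a clone name. Its RPKM was 1.53, 4.37 and 5.53 in mutants, against 75, 78.9 and 22.6 in controls, so that the mutant level climbed while the control level dropped at 6 hpf.

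**Figure D1:**
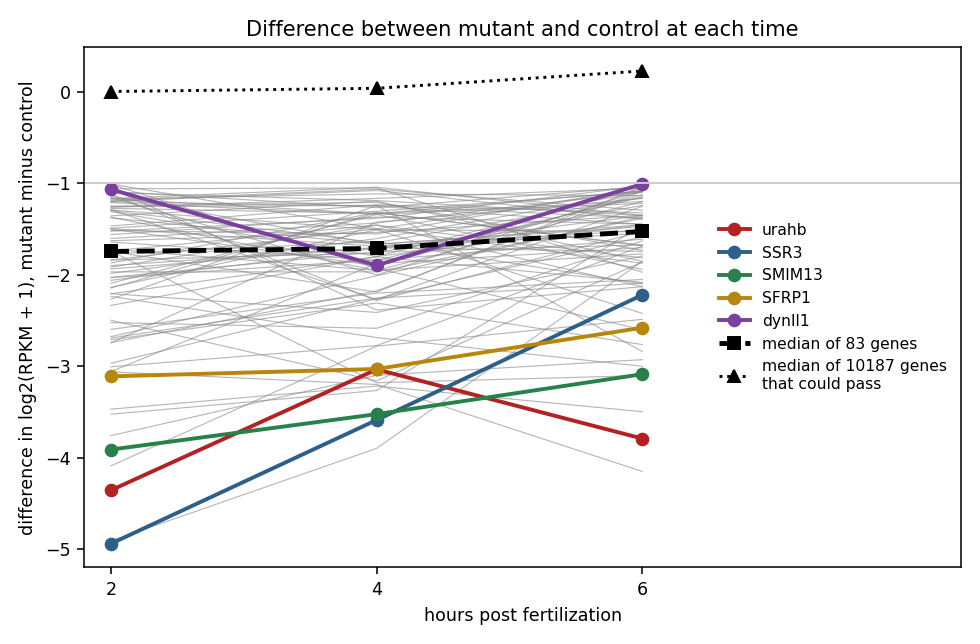
Difference in log2(RPKM + 1), mutant minus control, at 2, 4 and 6 hours post fertilization for each of the 83 genes (grey lines), with 5 genes in colour, the median of the 83 (dashed) and the median of the genes that could pass (dotted); the horizontal line is the limit of -1. SSR3 starts lowest, at -4.94, and ends at -2.22, while urahb is at -4.35, -3.03 and -3.79, and dynll1 runs along the limit at 2 and 6 hpf.

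Many of the 83 genes were weakly expressed in mutants. Their median RPKM was 0.605, 1.05 and 2.11 at 2, 4 and 6 hpf in mutants, against 6.07, 6.51 and 10.3 in controls. An RPKM under 1 was recorded in mutants for 53 genes at 2 hpf, 41 at 4 hpf and 31 at 6 hpf, and 5, 2 and 0 genes were listed at 0. The median control RPKM of the 10187 genes that could pass was 18 at 2 hpf, 17.7 at 4 hpf and 9.64 at 6 hpf, so the 83 genes had the lower median at 2 and 4 hpf and a similar one at 6 hpf. Averaged over the times, 19 of the 83 had a control RPKM of at least 20 and 27 had one under 5.

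Among the 83 genes, 38 carry a gene name, 9 a clone name and 36 no symbol in the gene name table. Genes without a symbol made up 43.4% of the 83, against 19.5% of all genes that could pass. Put the other way, 1.82% of the genes without a symbol and 1.36% of those with a clone name belonged to the set, against 0.504% of the named genes. The median differences of the 36 genes without a symbol were -1.82, -1.82 and -1.54 at 2, 4 and 6 hpf, and those of the 38 named genes were -1.67, -1.66 and -1.42. The named genes are described below in groups by what their products are known to do, mostly from human or mouse; these groups were formed after the values had been seen and have no test. Symbols are spelled as in the gene name table.

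Of the genes of metabolism, 8 belong to the set, and their median differences were -1.58, -1.47 and -1.46 at 2, 4 and 6 hpf. The gene with the lowest mean difference among all 83 was urahb, which encodes 5-hydroxyisourate hydrolase, an enzyme of urate breakdown. Its RPKM was 0.350, 1.26 and 3.12 at 2, 4 and 6 hpf in mutants, against 26.6, 17.5 and 55.9 in controls, and the log2 differences were -4.35, -3.03 and -3.79. PFKFB4, which makes and removes the glycolysis regulator fructose 2,6-bisphosphate, stood at 4.96, 6.46 and 22 in mutants, against 13.6, 20.2 and 122 in controls. Both groups thus held more PFKFB4 RNA at 6 hpf than at 2 hpf, and the gap widened to -2.42 at 6 hpf.

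GMDS, the first enzyme on the way to GDP-fucose, had 1.85, 2.98 and 14.5 RPKM in mutants, against 11.6, 8.94 and 48.7 in controls. RRM2B, a small subunit of ribonucleotide reductase, had 9.81, 10.3 and 6.71 RPKM in mutants, against 27.1, 35.0 and 20.4 in controls. Differences for these 2 genes lay between -2.14 and -1.32 at every time. The other 4 were low in both groups. G6PC3, a glucose-6-phosphatase, lay between 0.169 and 0.322 RPKM in mutants, against 1.82 to 2.56 in controls. CYP4V2, a cytochrome P450 that acts on fatty acids, lay between 0.0224 and 0.246 in mutants, against 2.02 to 2.37 in controls. PYCR3, an enzyme of proline synthesis, stood at 0.758, 1.12 and 1.63 in mutants, against 3.26, 4.33 and 5.05 in controls. The phospholipase D family gene pld7 stood at 0.0164, 0.235 and 1.11 in mutants, against 3.24, 3.05 and 4.39 in controls. In each of these 4 genes every mutant group value was below every control group value, which the rule sets where control levels change this little.

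2 proteins of the endoplasmic reticulum are encoded in the set. SSR3, the gamma subunit of the translocon-associated complex that helps proteins enter the organelle, had 0.113, 1.74 and 6.67 RPKM in mutants, against 33.1, 32.0 and 34.8 in controls. Its control level hardly moved, while its mutant level was higher at each later time, so that the difference shrank in steps, being -4.94, -3.59 and -2.22. ERLEC1, a lectin that takes part in disposal of misfolded glycoproteins, had 6.71, 2.06 and 2.70 RPKM in mutants, against 24.9, 13.0 and 6.61 in controls. Of all 83 genes ERLEC1 dropped most in controls between 2 and 6 hpf when measured in log2(RPKM + 1).

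The partners of SSR3 differed less. Among 10 measured genes of the translocon and its associated complex, lower values by at least 1 log2 were found for 1, 1 and 2 genes at 2, 4 and 6 hpf, SSR3 included each time. The share over all 17053 genes that reached 1 RPKM in any group was 3.34%, 6.31% and 8.91%. SSR2 stood at 172, 214 and 120 RPKM in mutants, against 264, 297 and 166 in controls, and SSR4 at 137, 128 and 136, against 190, 161 and 162. These are log2 differences between -0.61 and -0.26. SEC61G, which encodes the gamma subunit of the channel, was higher in mutants at 2 hpf (7.28 RPKM, against 2.27 in controls) and lower at 6 hpf (7.74, against 17.2). TRAM1, another translocon protein gene, was higher in mutants at 6 hpf (169 RPKM, against 81.5 in controls).

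RNA-binding and translation factors make up 5 of the named genes, with median differences of -1.52, -1.55 and -1.30. RBM22, a protein of the spliceosome core, had 0.218, 0.514 and 0.686 RPKM in mutants, against 6.97, 6.51 and 10.4 in controls. It had the lowest values of this group relative to control, between 3.13% and 7.91%. QKI, a regulator of splicing and RNA stability, had 0.669, 1.41 and 0.843 RPKM in mutants, against 7.42, 7.40 and 2.83 in controls.

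The other 3 were abundant and moved with development. EWSR1, an RNA-binding protein of the FET family, stood at 7.53, 10.9 and 170 RPKM in mutants, against 23.4, 33.9 and 351 in controls. The gene hnrnpul1, for a nuclear ribonucleoprotein, stood at 6.54, 6.76 and 44.5 in mutants, against 16.2, 15.2 and 111 in controls. EIF5, which promotes GTP hydrolysis by the initiation factor eIF2 when the start codon is found, stood at 33.9, 38.3 and 65.6 in mutants, against 77.5, 80.1 and 169 in controls. At 6 hpf each of these 3 genes was higher than at 2 hpf in both groups, and each stayed between 32.1% and 48.4% of control. Scaling mattered for the abundant genes at 6 hpf: with quantile normalization of the tables EWSR1 differed by -0.79, h2ax1 by -0.79, dynll1 by -0.69 and MARCKS by -0.94 there, and so missed the limit.

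Chromatin is represented by 2 genes. The histone variant gene h2ax1, for an H2AX protein that is phosphorylated at DNA breaks, had the second highest mean control level of the set. It had 37.3, 49.8 and 242 RPKM in mutants, against 93.4, 159 and 540 in controls. The other was lrif1, whose human product binds the heterochromatin protein HP1, at 0.0425, 0.467 and 1.62 RPKM in mutants, against 2.56, 3.57 and 10.2 in controls. In both genes the RNA increased with time in both groups.

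Signalling and ubiquitin genes numbered 7, with median differences of -1.84, -1.50 and -1.32. SFRP1, a secreted protein that binds Wnt ligands, had 0.0953, 1.94 and 16.2 RPKM in mutants, against 8.46, 23.0 and 102 in controls. The mutant value at 4 hpf was below the control value at 2 hpf, and the mutant value at 6 hpf below the control value at 4 hpf. FBXW8, a substrate receptor of a cullin ubiquitin ligase, had 0.751, 1.16 and 2.62 RPKM in mutants, against 9.06, 12 and 10.2 in controls. PPP1R14B, an inhibitor of protein phosphatase 1, had 0.0690, 0.189 and 11.5 RPKM in mutants, against 1.96, 1.8 and 30.3 in controls.

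Of the 3 measured secreted Wnt antagonists, SFRP1 was the only one in the set. Another, frzb, was at 0.196, 0.266 and 3.86 RPKM in mutants, against 1.08, 1.02 and 19.8 in controls, and so passed 1 log2 at 6 hpf alone. Its control levels at 2 and 4 hpf left barely room for a difference of 1 log2. The third, dkk1b, was at 24.5 RPKM in mutants, against 14.7 in controls, at 6 hpf, a difference of 0.70. With 0.0639 RPKM in controls at 2 hpf, dkk1b could not have met the rule. Thus 1, 1 and 2 of the 3 were lower by at least 1 log2 at 2, 4 and 6 hpf, SFRP1 included each time by the rule. Of all 17053 genes that reached 1 RPKM in any group, 3.34%, 6.31% and 8.91% were lower at these times.

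A further 3 signalling genes were low. DUSP23, a dual-specificity phosphatase, had 1.15, 1.8 and 2.60 RPKM in mutants, against 5.18, 6.32 and 6.37 in controls. The guanylate cyclase gene gucy2d and MCHR2, a receptor for melanin-concentrating hormone, reached at most 0.349 RPKM in mutants, against 1.97 to 4.91 in controls. All 3 lay at 40.9% of control or less throughout.

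Genes of the cytoskeleton, cell adhesion and calcium binding were the largest group, with 9 genes. The light chain dynll1, shared by dynein and myosin motors, had the highest mean control level of the set and climbed most in controls between 2 and 6 hpf. It had 19.3, 31.2 and 705 RPKM in mutants, against 41.5, 119 and 1419 in controls, and its differences of -1.07, -1.90 and -1.01 lay close to the limit at 2 and 6 hpf. MARCKS, which ties actin to the cell membrane, had 4.96, 8.04 and 69.3 RPKM in mutants, against 15.9, 32.8 and 152 in controls. CELSR2, an atypical cadherin of planar cell polarity, had 0.138, 0.230 and 6.43 in mutants, against 1.71, 1.85 and 23.7 in controls.

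The desmosomal cadherin gene dsg2.1 stood at 0.754, 1.18 and 10.1 RPKM in mutants, against 3.04, 4.19 and 29.4 in controls. The junction scaffold gene MAGI1 stood at 0.707, 1.05 and 5.23 RPKM in mutants, against 2.64, 3.94 and 11.8 in controls. Like MARCKS and CELSR2, both were highest at 6 hpf in both groups. 3 genes of calcium-binding proteins belong to the set. The calpain protease gene capn2l was listed at 0 at 2 hpf and then at 0.241 and 0.242 RPKM in mutants, against 6.82, 4.95 and 2.73 in controls. The annexin gene anxa3b was at 0.147, 0.603 and 0.350 RPKM in mutants, against 6.33, 5.46 and 2.48 in controls. In these 2 genes the control level dropped with time and the difference narrowed. The third, s100s, of the S100 family, went the other way, with 0.310, 0.448 and 1.19 RPKM in mutants, against 5.17, 8.32 and 16.5 in controls, and differences of -2.24, -2.69 and -3.0. The last gene of the group, vwa5a, which encodes a protein with a von Willebrand factor A domain, had 0.866, 1.47 and 3.03 RPKM in mutants, against 11, 10.8 and 16.2 in controls.

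A further 5 named genes fall outside these groups. SMIM13, a small membrane protein of unknown role, had 2.35, 3.28 and 2.47 RPKM in mutants, against 49.4, 48.2 and 28.5 in controls. It was at most at 8.68% of control and one of the 12 genes with a difference of at least 2 below control throughout. CCDC90B, a mitochondrial coiled-coil protein, had 0.605, 0.584 and 1.73 RPKM in mutants, against 11.9, 9.83 and 7.79 in controls. C7H11orf68 and llph had differences of -1.39 to -1.08. The immunoglobulin heavy variable segment ighv14-1 was listed at 0, 0 and 0.0916 RPKM in mutants, against 1.08, 4.23 and 3.78 in controls.

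Genes without a symbol were among the lowest of the set, though nothing can be said of what they encode. ENSDARG00000077402 had 0.0593, 0.439 and 0.307 RPKM in mutants, against 7.84, 12.2 and 22.2 in controls, and its difference of -4.15 was the lowest of all at 6 hpf. ENSDARG00000089095 had 0.196, 0.386 and 0.585 RPKM in mutants, against 12.2, 11.9 and 16.9 in controls. ENSDARG00000020048 was the most abundant of them, at 18.3, 19.9 and 64.3 RPKM in mutants, against 41.7, 65.4 and 178 in controls. The first 2 stayed at 3.60% of control or less, and the last at 30.4% or more.

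**Figure D2:**
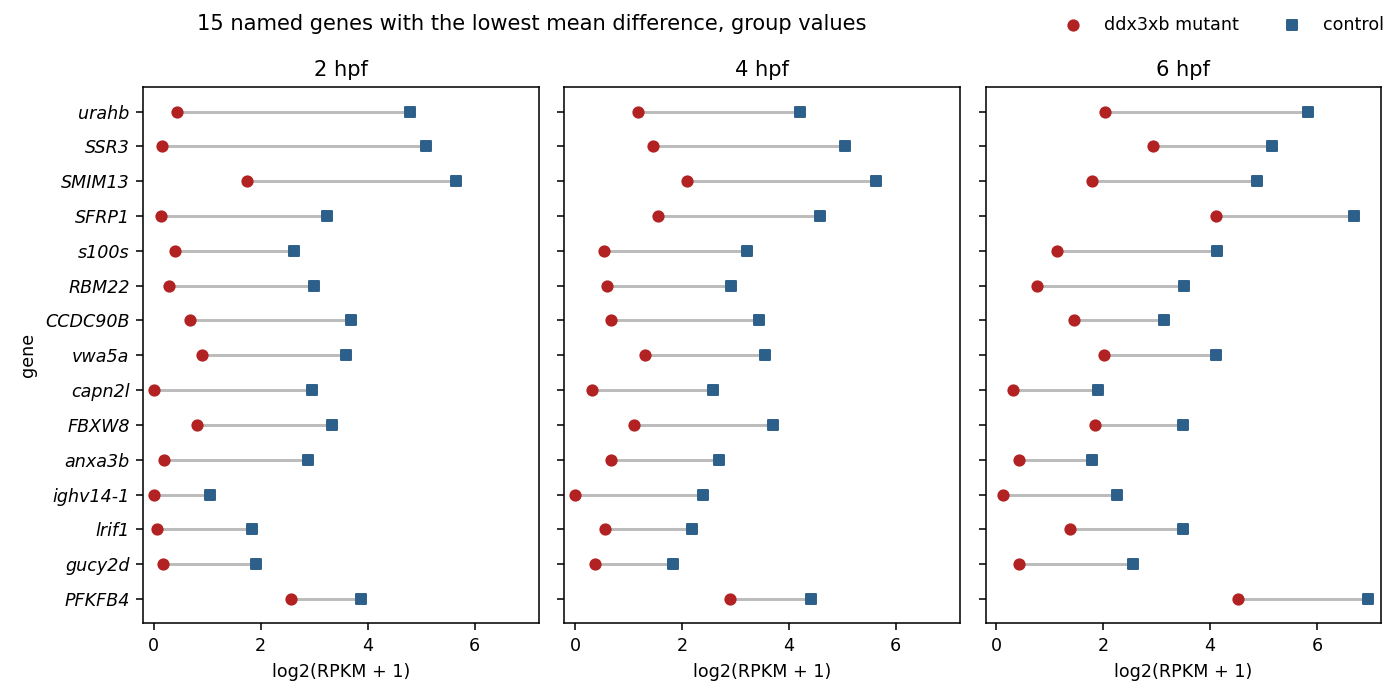
Group values of log2(RPKM + 1) for the 15 named genes with the lowest mean difference, at 2, 4 and 6 hours post fertilization; red circles are ddx3xb mutants, blue squares are controls, and each grey line is the difference. Mutant values lie left of control values in every row, as the rule requires, and SFRP1 and PFKFB4 move right with time in both groups.

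Several large gene classes had no or few members in the set. Of the genes that could pass, 0 of 128 solute carriers, 0 of 104 zinc finger genes, 0 of 77 ribosomal protein genes, 0 of 28 TRIM genes and 0 of 10 claudin and keratin genes belonged to it. At the overall share of 0.815%, 128 genes correspond to about 1 gene, so these zeros carry little information. Single genes came from the 15 histone genes (h2ax1) and the 14 cytochrome P450 genes (CYP4V2).

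The genes just inside and just outside the limit can be set side by side. DUSP23, MAGI1, dynll1 and the genes ENSDARG00000074655 and ENSDARG00000068975 were nearest on the inside, with a smallest difference between -1.04 and -1.01. Nearest on the outside was one ID of ZRANB1, a deubiquitinase gene, with 0.684, 2.04 and 6.53 RPKM in mutants, against 28.1, 31.0 and 13.9 in controls. It missed the limit only at 6 hpf, where its difference was -0.99, after -4.11 and -3.39 at the earlier times. Next outside were nabp1b, ENSDARG00000090989, ENSDARG00000058963 and a gene with a clone name, with smallest differences of -0.98 to -0.96. Between -1.1 and -1 lay 21 of the 83 genes, and 28 genes lay outside between -1 and -0.9.

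The set can also be placed among the genes lower at single times. Of 17053 genes that reached 1 RPKM in any of the tables, 3.34% were lower in mutants by at least 1 log2 at 2 hpf, 6.31% at 4 hpf and 8.91% at 6 hpf. The 83 genes made up 14.6% of those lower at 2 hpf, 7.72% of those at 4 hpf and 5.47% of those at 6 hpf. Of the 310 genes lower at both 2 and 4 hpf, 26.8% were also lower at 6 hpf. The other 227 had a median difference of -0.22 at 6 hpf, and 73 of them were above 0 there. Among the 310 genes, 79 had a control RPKM under 1 at 6 hpf and so could not differ by 1 log2 at that time, whatever their mutant level. Of the 108 genes lower at 2 and 6 hpf, 76.9% were also lower at 4 hpf.

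The course of the 83 genes in controls was also counted. At 6 hpf 29 of them were higher than at 2 hpf by at least 1 log2, which is 34.9% of the 83, against 14.8% of the genes that could pass. A further 9 were lower, which is 10.8%, against 40.3%. These control values also entered the rule, so the shares describe the set and have no test. In mutants 28 of the 83 genes were higher at 6 hpf than at 2 hpf and 4 were lower, and 22 were higher in both groups. In mutants at 2 hpf 53 of the 83 genes were under 1 RPKM and so could not drop by 1 log2 on this scale. The mutant shares over the genes that could pass were not counted.

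The largest increases in controls, in log2(RPKM + 1), were those of dynll1, EWSR1, SFRP1, PPP1R14B and ENSDARG00000094388. The last of these had 0.207, 0.910 and 17.3 RPKM in mutants, against 4.31, 4.43 and 51.7 in controls. All 5 genes also increased in mutants. Of the 9 genes whose control level dropped between 2 and 6 hpf, 7 were not lower by 1 log2 in mutants, among them QKI, anxa3b, capn2l and si:ch1073-190k2.1. These 4 genes were already low in mutants at 2 hpf, where QKI stood at 0.669 RPKM, against 7.42 RPKM in controls.

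Zebrafish embryos carry duplicate genes, and the tables list some symbols under more than one Ensembl ID. Reads shared between near-identical copies could have been split in counting, so such genes are uncertain. Another ID of the same symbol exists for 6 of the 38 named genes, which is 15.8%, against 12.2% of the 7543 named genes that could pass. Copies under an unlike symbol were not searched for, though capn8 lies next to capn2l and s100u next to s100s in gene order. Whether those share reads was not tested. For DUSP23, QKI, SFRP1 and CYP4V2 the other ID was at most 0.675 RPKM in every table, and the sum of the IDs was lower by at least 1 log2 at all 3 times. Adding so little could hardly change a difference, so these sums are no check for shared reads. For the other 2 genes the other ID held most of the RNA.

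The other MARCKS ID had 542, 471 and 795 RPKM in mutants, against 534, 591 and 1037 in controls. Summed over both IDs, MARCKS differed by -0.01, -0.38 and -0.46, so only the less abundant of the 2 IDs met the rule. The other MAGI1 ID had 15.1, 13.6 and 22.5 RPKM in mutants, against 13.0, 12.4 and 34.6 in controls. Summed, MAGI1 differed by 0.01, -0.15 and -0.72. With IDs of 1 symbol summed before the comparison, 81 genes met the rule, and MARCKS and MAGI1 were the 2 that left it. A sum must follow its more abundant ID, so leaving the set is no check for shared reads. Whether IDs with 1 symbol are copies or separate genes was not tested.

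**Figure D3:**
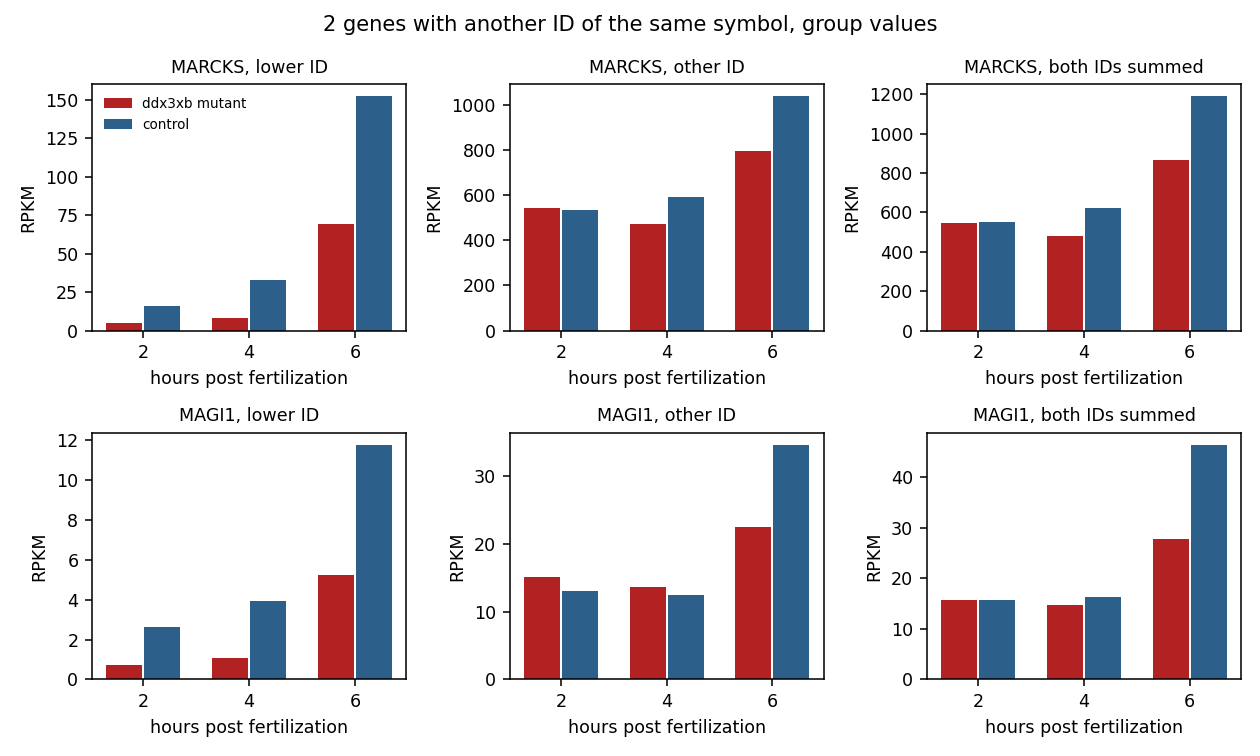
RPKM of MARCKS (top) and MAGI1 (bottom) at 2, 4 and 6 hours post fertilization for the ID that met the rule, for the other ID and for their sum; red bars are ddx3xb mutants and blue bars controls, 1 group value each. The other ID is the larger in both genes, and in the sums the mutant bars come close to the control bars at 2 hpf, at 547 RPKM in mutants against 550 RPKM in controls for MARCKS and at 15.8 RPKM in mutants against 15.6 RPKM in controls for MAGI1.

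Relatives under a similar symbol mostly differed by less. The paralog ewsr1b had 126, 134 and 392 RPKM in mutants, against 172, 208 and 541 in controls, and differences of -0.44, -0.63 and -0.46. The paralog qkia had 5.50, 6.65 and 7.56 RPKM in mutants, against 5.28, 4.99 and 9.98 in controls. Summed with qkia, QKI differed by -0.94, -0.56 and -0.55, which misses the limit at every time. The paralog pfkfb4a had 19.6, 13.7 and 7.74 RPKM in mutants, against 22.3, 7.99 and 1.95 in controls, so it was higher in mutants at 6 hpf by 1.57 while PFKFB4 was lower. Summed with it, PFKFB4 differed by -0.53, -0.46 and -2.03. The sum of EWSR1 and ewsr1b differed by -0.54, -0.73 and -0.66, and that of anxa3b and ANXA3 by -1.98, -1.34 and -0.97. With mchr2b, which reached at most 0.447 RPKM, MCHR2 differed by -1.35, -1.32 and -1.11 and still met the limit. Adding a relative that is abundant and differs little must shrink a difference. Whether these sums meet the limit is thus no check for shared reads, which was not tested.

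RRM2, which encodes the other small subunit of ribonucleotide reductase and is a relative of RRM2B, is listed under 2 IDs that differed in opposite directions. One ID had 283, 282 and 369 RPKM in mutants, against 818, 715 and 635 in controls. The other had 388, 333 and 319 RPKM in mutants, against 10.4, 20.7 and 10.9 in controls. Their sum, looked at after these values had been seen, was 671, 615 and 688 RPKM in mutants, against 829, 736 and 646 in controls, which are differences of -0.30, -0.26 and 0.09. ZRANB1, outside the limit, also has a second ID, which had 22.7, 23.7 and 13.8 RPKM in mutants, against 15.9, 17.8 and 10.7 in controls. Its differences of 0.48, 0.40 and 0.34 were smaller in size at each time than those of the first ZRANB1 ID, which was lower in mutants.

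Other pathway lists were also examined; several of them were drawn up around genes that lie outside the set. Among urate breakdown genes only urahb and uox, for urate oxidase, were measured above the minimum. The uox gene was listed at 0, 0.0564 and 7.58 RPKM in mutants, against 0, 0.0703 and 19.8 in controls, so it was lower by 1.28 log2 at 6 hpf. The lists of Yae1 and ABCE1 genes (2 measured), NCK adaptors and actin signalling (5) and JNK-interacting proteins (3) held 0 genes of the set. So did those of OTU deubiquitinases (5) and RNA polymerase III subunits (9). At the overall share of 0.815%, zeros in lists this short carry little information. YAE1, NCK1 and SPAG9 each had 1 ID that was lower at 2 and 4 hpf and missed the limit at 6 hpf. At 6 hpf that NCK1 ID had 0.333 RPKM in mutants, against 1.59 in controls, and SPAG9 had 0.722, against 2.16. Both were still well below control, at levels where the scale makes differences smaller. YAE1, part of an adaptor that loads iron-sulfur clusters onto ABCE1, had 1.97, 4.33 and 2.82 RPKM in mutants, against 47.1, 36.7 and 4.13 in controls. At 6 hpf its control level had dropped to near the mutant level.

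Gene order was read from the RefSeq annotation of the assembly GRCz12tu, which is not the build the submitters name, so it serves only to say which genes lie next to each other. By symbol, 33 of the 47 genes with a symbol could be placed among 27039 protein-coding genes. They lay on 15 sequences, with at most 4 on one. Another gene of the set within 1, 5 or 10 genes was found for 0 of the 33. On the sequence that holds ddx3xb lay 0 of the 33, against 4.5% of the 6624 genes that could pass and were placed. With so few genes placed among so many, these zeros carry little information. The 36 genes without a symbol could not be placed at all.

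The 70 measured genes that flank the placed genes, up to 2 on each side, had median differences of -0.02, -0.05 and 0.09 at 2, 4 and 6 hpf. Of these, 5, 5 and 7 were lower by at least 1 log2, the first 2 counts being 7.14% each. Among all 9588 placed and measured genes 2.28%, 3.72% and 6.93% were lower. Higher by at least 1 log2 were 2, 3 and 11 of the 70, and 3.89%, 3.48% and 19.2% of all placed genes. Of the flanking genes that were lower at 2 hpf, APEX2 beside lrif1 differed by -1.92, -1.32 and 0.45, ZPR1 beside h2ax1 by -1.80, -0.78 and 0.00, and ppp1r13l, 2 genes from hnrnpul1, by -1.48, -1.40 and 0.17. Beside CCDC90B, PCF11 differed by -0.16, -0.84 and -0.43 and ALG8 by 0.41, 0.84 and 0.59.

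Stage markers also differed between the groups, and their part in the differences of the 83 genes was not tested. Of 12 measured markers 0 belong to the 83 genes, but most of the markers of zygotic tissues could not have passed the rule, since controls hardly held them at 2 hpf (krt4, for example, at 0.386 RPKM). The summed RPKM of 5 egg and germ plasm genes was 717, 686 and 252 in mutants, against 935, 499 and 69.9 in controls. Among them buc, the organiser of the germ plasm, had 251, 246 and 61.7 RPKM in mutants, against 301, 138 and 6.13 in controls. DAZL, also among them, was lower in mutants at 2 hpf, with 39.0 RPKM, against 103 in controls. The summed RPKM of 7 genes of the enveloping layer, yolk syncytial layer and mesendoderm was 6.41, 63.3 and 2443 in mutants, against 2.69, 265 and 3861 in controls, and 6 of the 7 were lower by at least 1 log2 at 4 hpf. Of all 17053 genes that reached 1 RPKM in any group, 6.31% were lower at 4 hpf. At 6 hpf these markers went both ways. The markers mixl1 and mxtx2 were higher in mutants then, with 63.8 and 31.6 RPKM, against 6.65 and 3.58 in controls. In contrast, krt5 was lower, with 465 RPKM, against 965 in controls, a difference of -1.05. The differences of krt8 and krt4 at 6 hpf were -0.83 and -0.77.

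The 83 genes were also set against the control of the time before, a comparison added after the data had been seen. Mutants at 4 hpf were lower than controls at 2 hpf by at least 1 log2 in 71 of the 83 genes, with a median of -1.54, while 4.32% of the genes that could pass were lower and their median was 0.01. Mutants at 6 hpf were lower than controls at 4 hpf in 51 of the 83 genes, with a median of -1.40, while 18.2% of the genes that could pass were lower and their median was -0.38. Above 0 were 1 and 14 of the 83 genes in these comparisons. These control tables also chose the genes, so the counts describe them and are no test.

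The spread between the 2 libraries of a group is not given in the tables, but part of it could be recovered. Low RPKM values fell on the grid that a plain mean of 2 libraries of whole reads would give. Under that assumption a gene length that satisfied the tables was found for 24 of the 83 genes, and the reads of both libraries could be read for both groups at 14 genes at 2 hpf, 12 at 4 hpf and 14 at 6 hpf. The rule works on the means of these same libraries, so whether the 2 groups overlap in them is no check of the set, and the reads are given only to show what lies behind the values. They come from mostly weakly expressed genes, since the grid is lost at high counts, so nothing is known of the spread of genes such as dynll1 or EIF5.

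Counts of reads show how thin some values are. In these genes the 2 libraries of a group were compared in 88 cases of 1 gene in 1 group. Each case had at least 20 reads in both libraries together and some in each. The libraries differed by a median of 0.31 log2, and in 13 of the 88 cases by more than 1. The clone-named gene si:dkey-253d23.9 had 32 and 33 reads at 2 hpf, 28 and 38 at 4 hpf, and 25 and 24 at 6 hpf in the deeper and the shallower mutant library. The control libraries had 234 and 176 reads, 200 and 164, and 117 and 142. The ighv14-1 segment had 0 reads in both mutant libraries at 2 and at 4 hpf, and 5 and 0 reads at 6 hpf. Control libraries had 29 and 14 reads of it, 92 and 73, and 68 and 44. For MCHR2 the 2 mutant libraries at 2 hpf disagreed, with 0 reads in the deeper and 22 in the shallower. Cases with 0 reads in a library, such as this, are not among the 88, so the spread given leaves them out.

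9 genes could be read in all 12 libraries. ENSDARG00000068975, which lies close to the limit at 2 hpf, had 0.270 and 0.266 RPKM in mutant libraries at that time, against 2.12 and 0.994 in control libraries. At 4 hpf that gene had 0.409 and 0.477 RPKM in mutant libraries, against 4.59 and 4.42 in control libraries. For ENSDARG00000089684 the mutant libraries at 2 hpf had 0.714 and 0.0552 RPKM, against 2.03 and 2.00 in control libraries. In both genes 1 of the 4 libraries at 2 hpf lay well apart from its partner.

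**Figure D4:**
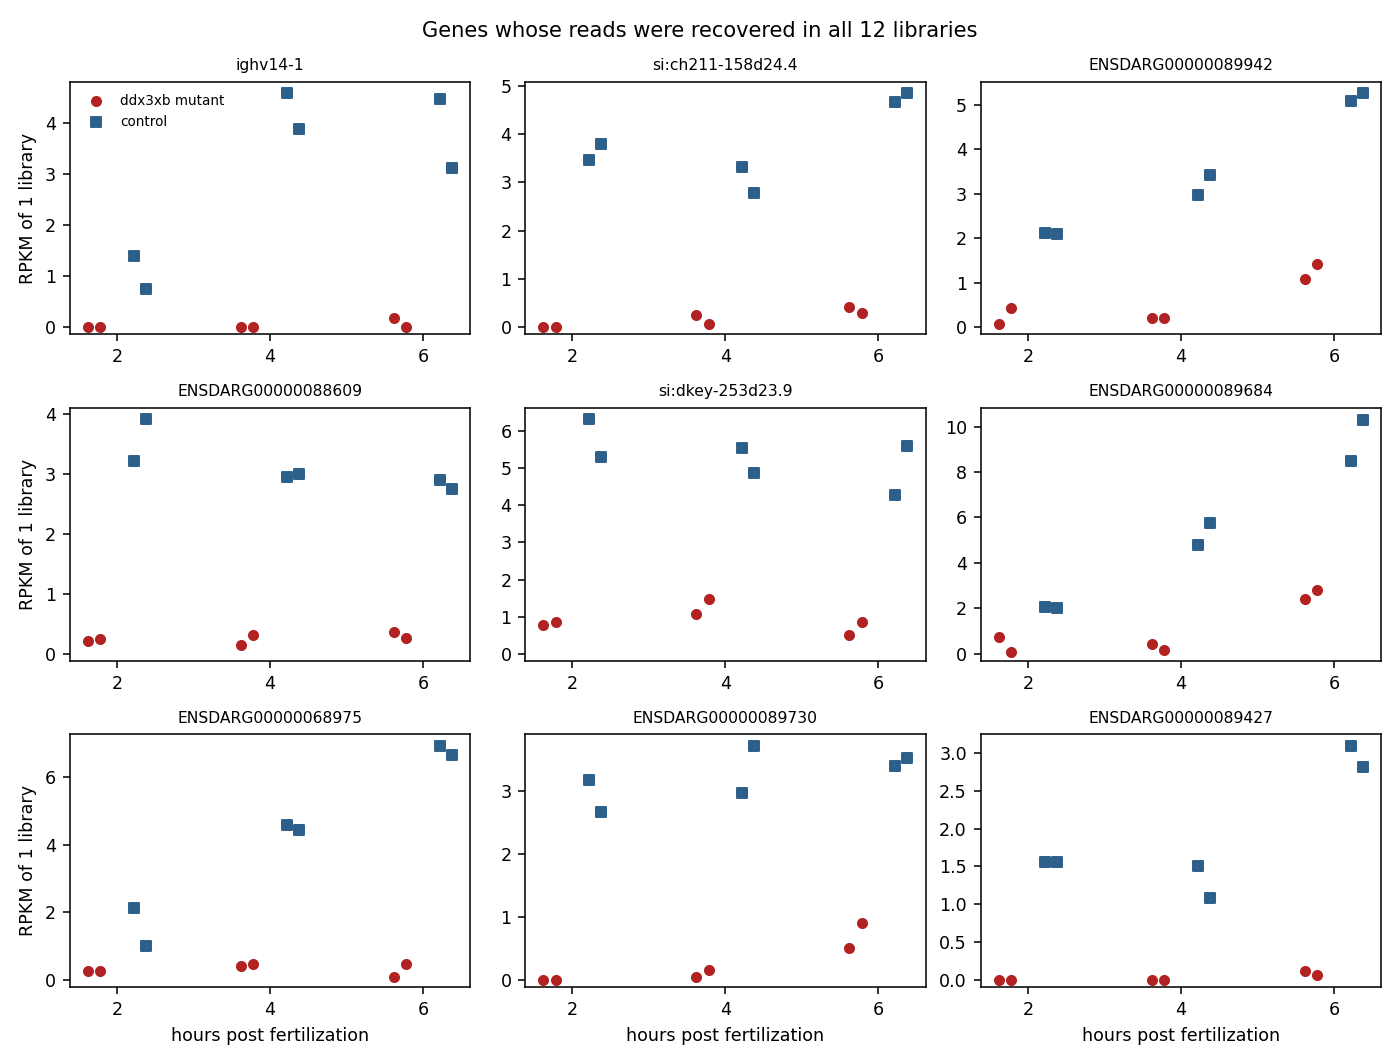
RPKM in single libraries of the 9 genes whose reads could be recovered in all 12 libraries, at 2, 4 and 6 hours post fertilization; red circles are the 2 ddx3xb mutant libraries and blue squares the 2 control libraries, with the deeper library left of the shallower. The 2 control points of ENSDARG00000068975 at 2 hpf lie apart, at 2.12 and 0.994 RPKM; these genes were chosen by their group means, which fixes the order of the groups.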

How the data were processed

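Polyadenylated RNA of 12 zebrafish embryo samples was sequenced, 2 per genotype and time. The authors deposited 6 tables of RPKM values, 1 per group, each with 33737 Ensembl gene IDs. Per the submitters' processing notes, the tools were cutadapt 1.13, Trimmomatic 0.36, HISAT2 2.0.5 and SAMtools 1.9 and the build was Zv9; which tool did what is not recorded. The kit is a stranded one, per the labels' protocols; how reads were counted, and whether by strand, is not given in the sources used here. Each table holds 1 value for a group of 2 samples, so no test was run and no p-value is given.

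Comparisons used log2(RPKM + 1), a scale on which low genes differ by less than their ratio. Differences are mutant minus control. Counts over all genes use the 17053 genes that reached 1 RPKM in any of the tables, and counts over genes that could pass use those with a control RPKM of at least 1 at all 3 times. The gene set, the pathway and marker lists and the gene groups were chosen with earlier results of these data known. Genes were named by rule: the 15 named genes with the lowest mean difference, the 5 nearest the limit on each side, genes with another ID of the same symbol, the 5 with the highest control level, the 5 with the largest change in controls in each direction, and genes in a class or pathway list. The remaining named genes of the set were added, except 1 that is not reported here, and so were paralogs, flanking genes and 3 genes without a symbol; these were chosen after their values were seen. Symbols came from the gene name table, which gives one for 21939 of the IDs, and RefSeq genes were matched by symbol or synonym.

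Library reads were recovered by writing a value times a gene length as whole reads of 2 libraries times the worth of 1 read in each, under the assumption that the deposited value is a plain mean of 2 libraries. The worth of 1 read was found by inspection and refined on 1688 genes, kept because their lengths came out whole. Of the shorter lengths on which the scale was chosen 99.5% were whole, a share that this choice favours. A length was accepted where at most 0.01 lengths were expected by chance, and reads where exactly 1 solution existed. Depths in M reads, deeper library first, were 62.9 and 58.1, 39.6 and 38.8, and 73.0 and 41.5 in mutants at 2, 4 and 6 hpf, and 55.2 and 49.7, 53.8 and 50.3, and 40.9 and 37.8 in controls. Depth and gene length are known only up to a factor common to both, taken as the smallest that makes the lengths whole, so the depths in M reads rest on that choice. The replicate numbers of these libraries are unknown. The steps were tested on simulated data. Python 3.11.15 with pandas 2.3.3, NumPy 2.4.6 and matplotlib 3.10.9 was used. The alternatives tried were other pseudocounts, trimmed-mean rescaling and quantile normalization of the tables, other limits, a minimum control level, and summing of IDs with 1 symbol.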

Additional observations from a re-analysis of the deposited data

How the results depend on the processing

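The size of the set depends on the limit and the pseudocount. Against 83 genes as reported, a pseudocount of 0.1 gave 423 genes, 0.5 gave 150 and 5 gave 22. A limit of 0.5 log2 gave 411 genes and a limit of 2 gave 12, and a control RPKM of at least 5 at all times left 40. Trimmed-mean rescaling gave 105 genes, of which 80 were in the set, and quantile normalization gave 112, of which 76 were. With a pseudocount of 0.1 the genes lower at 2, 4 and 6 hpf numbered 1172, 2263 and 2282, against 569, 1076 and 1519 as reported, and at 6 hpf quantile normalization gave 2312. The median differences of the 83 genes with a pseudocount of 0.1 were -3.03, -2.71 and -2.11, and at 6 hpf they were -1.73 with trimmed-mean rescaling and -1.96 with quantile normalization. The median over all genes at 6 hpf was 0.22 as deposited, 0.10 with trimmed-mean rescaling and 0.07 with quantile normalization. Of 117 values of single genes, which include those of the 5 genes nearest outside the limit, 49 no longer passed it with a pseudocount of 5. With quantile normalization 5 did not (dynll1, EWSR1, h2ax1 and MARCKS at 6 hpf and ENSDARG00000074655 at 2 hpf). With trimmed-mean rescaling 3 did not (ighv14-1, ENSDARG00000068975 and ENSDARG00000074655 at 2 hpf). Values that newly passed the limit numbered 5 with quantile normalization and 4 with trimmed-mean rescaling, all from genes outside the set. A change of pseudocount cannot turn a direction. Neither rescaling turned one, but these genes were chosen by their differences, so that is no check. No paired analysis was possible because each group has 1 table with no column per library, and leaving out a replicate could not be run for the same reason. Comparison of near-identical proteins and the search for promoter motifs were not run, since no sequences were used here. The spread between libraries of well expressed genes is unknown.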
